A study of Mus musculus with 9 samples.

Results

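The genes described here encode 9 enzymes that make or interconvert asparagine, aspartate, alanine, proline, ornithine, glutamate and glutamine, out of 12842 genes profiled in mouse NPK prostate cancer cells. They are Asns, Gpt2, Got1, Got2, Glud1, Glul, Pycr1, Aldh18a1 and Oat. The list was selected on measured values: Gpt2 and Asns were chosen by their large falls in cells treated with MCTP, and the other 7 genes were added because they act in the same or neighbouring reactions. The values of all 9 genes in the control and MCTP libraries are therefore given as a description without a test, and the shNsd2 libraries, which were not used for the choice, are tested against the control libraries, which were.

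Polyadenylated RNA was sequenced from 9 libraries of cultured NPK cells: 3 from control cells, 3 from cells treated with MCTP and 3 from cells in which Nsd2 was silenced with shRNA (shNsd2). Nsd2 is a histone methyltransferase that places the dimethyl mark on lysine 36 of histone H3. MCTP-39 (3-hydrazinoquinoxaline-2-thiol) was used in the study as a putative inhibitor of Nsd2. The study describes its use on human prostate cancer cells. Because of possible metabolites and a possible lack of specificity, it does not conclude that the compound acts through NSD2. The design asks how the transcriptome of the cells differs when Nsd2 is lowered or when the compound is given. NPK cells were isolated from lung metastases of genetically engineered mice. All 3 groups share the genotype of this line. The labels number the MCTP compounds 39, 40 and 41 in replicates 1, 2 and 3, of which the study names number 39 alone, and neither the dose nor the time of treatment of NPK cells is given. The source names of the shNsd2 libraries name Nsd2, Nsd3 and Nsd4 in turn, whereas their titles all name Nsd2. Whether these numbers mark different reagents or arose in labelling is not known. If they mark different reagents, the mean and SD of a group cover different reagents. Which shRNA each library received, whether the control cells carried the control shRNA against luciferase, and whether the MCTP cells had a vehicle control of their own are not given in the sources used here. The labels do not say that replicates came from separate cultures, so p-values measure the spread between these samples, which may be technical.

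Expression is given on the log2 scale of the deposited table, in which libraries are already scaled to each other. The transform behind these values is not stated for these libraries, and a difference of 1 equals a doubling only where it acts as a plain log2, which may not hold at low levels, so the percentages and folds below are nominal. Levels are not corrected for gene length, so they are compared between libraries and not between genes. Counts are not part of the table, so sequencing depth cannot be given, and precision was judged from the replicates. In RNA from bulk cultures, fewer expressing cells and less RNA per cell cannot be told apart.

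Asparagine synthetase (Asns) transfers an amide group from glutamine to aspartate, and the alanine and aspartate aminotransferases (Gpt2, Got1, Got2) move the amino group of glutamate onto pyruvate or oxaloacetate. Proline is built from glutamate through pyrroline-5-carboxylate, an intermediate that is also reached from ornithine, while glutamate itself is replenished from glutamine or 2-oxoglutarate. When amino acids run short, the kinase encoded by Eif2ak4 phosphorylates the initiation factor eIF2, which favours translation of the transcription factor Atf4, and Asns is among the best known targets of Atf4.

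Nsd2, the targeted gene, is listed in the table under its earlier symbol Whsc1. Its log2 expression was 12.48, 12.43 and 12.42 in control replicates 1 to 3, 12.15, 12.21 and 12.07 in the MCTP libraries, and 11.56, 11.61 and 11.68 in the shNsd2 libraries. Every shNsd2 library lay below every other library, and the MCTP libraries lay between the 2 other groups. With shNsd2 the log2 fold change against control was -0.83 (standard error 0.041, adjusted p = 2.26e-06 from limma), a level of 56.3% of control.

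Among the markers fixed for the cell types, the epithelial genes Krt8, Krt18, Krt19, Krt14 and Cdh1 and the transcription factors Hoxb13 and Foxa1 were listed, and Krt5 and Pbsn were not listed in the table. Epcam was listed at 3.54 to 3.76, below the floor of 3.78 used as a filter, in all 9 libraries. The epithelial genes did not move in a single direction. Krt14 stood at 8.78, 8.98 and 8.95 in control, 10.06, 9.91 and 10.30 in MCTP and 9.76, 9.68 and 9.63 in shNsd2 libraries, above control in both. Cdh1 stood at 11.70, 11.79 and 11.84 in control, 11.46, 11.44 and 11.41 in MCTP and 11.58, 11.58 and 11.56 in shNsd2 libraries, below control in both. Krt8 ranged from 16.21 to 16.35 in control, 16.34 to 16.70 in MCTP and 15.97 to 16.15 in shNsd2 libraries, and Krt19 from 16.08 to 16.28, 16.34 to 16.76 and 15.76 to 15.94. The immune markers Ptprc, Emr1, Csf1r and Cd3e, the endothelial markers Pecam1 and Kdr, the fibroblast markers Col1a2 and Pdgfrb, the neuroendocrine marker Chga and all 3 lung epithelial markers (Sftpc, Sftpb and Scgb1a1) were not listed either, while the endothelial marker Cdh5 was at 3.47 to 3.71 and the neuroendocrine marker Syp at 4.07 to 4.16. Of the 4 fibroblast and contractile genes that were, Acta2 (smooth muscle actin) stood at 5.83, 6.03 and 5.98 in control, 8.91, 8.81 and 9.16 in MCTP and 6.04, 6.18 and 6.01 in shNsd2 libraries. The summed level of these 4 genes was 8.57, 8.51 and 8.59 in control, 9.55, 9.48 and 9.66 in MCTP and 8.34, 8.42 and 8.34 in shNsd2 libraries. Col1a1 lay below control in both treated groups (8.25, 8.12 and 8.23 in control, 7.94, 7.92 and 7.76 in MCTP and 7.88, 7.95 and 7.89 in shNsd2 libraries), and Dcn stayed between 2.31 and 2.50 in all 9 libraries, near the bottom of the scale. Cd68, the single immune marker listed, was 6.50, 6.51 and 6.60 in control, 7.20, 7.15 and 7.44 in MCTP and 6.78, 6.78 and 6.72 in shNsd2 libraries. The part of these markers in the differences between groups was not tested.

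Some libraries stood apart from their replicates. Control replicate 1 lay below the mean of the other control libraries by a difference of -0.41 for Asns, -0.39 for Gpt2, -0.33 for Aldh18a1, -0.27 for Pycr1 and -0.26 for Got1, where the standard deviation of this difference over all genes above the floor was 0.119. For Got2, Glud1, Glul and Oat the same library lay within that standard deviation of the other controls. MCTP replicate 2, labelled with compound number 40, was the farthest from its group over all genes, with a standard deviation of 0.209 and 19.3% of genes more than 0.25 from the other MCTP libraries. MCTP replicate 3 came next, with a standard deviation of 0.158 and 11.1% of genes past 0.25, against 4.65% for control replicate 1. MCTP replicate 2 was the lowest of the MCTP libraries for all 9 enzymes, and its difference from the mean of the other MCTP libraries was -0.25 for Got2, -0.22 for Aldh18a1 and -0.21 for both Asns and Gpt2. Whether MCTP replicate 2 differs through its compound or through its handling cannot be told apart. The shNsd2 libraries had standard deviations between 0.060 and 0.094.

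Asns (ENSMUSG00000029752.6, chromosome 6 of GRCm38, 7675169 to 7693254, - strand) makes asparagine. Its log2 expression was 13.30, 13.68 and 13.73 in control replicates 1 to 3, 12.34, 12.15 and 12.37 in MCTP libraries, and 13.37, 13.32 and 13.38 in shNsd2 libraries. All MCTP libraries lay below all others, and the shNsd2 libraries sat close to control replicate 1 and below control replicates 2 and 3. The group means were 13.57 ± 0.24 in control, 12.29 ± 0.12 with MCTP and 13.36 ± 0.032 with shNsd2 (SD, n = 3 each). MCTP stood at -1.29 from control (standard error 0.118), a level 2.44 times lower than control and the 6th largest fall among 12216 genes. The difference was -1.42 without control replicate 1 and -1.22 without MCTP replicate 2.

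Gpt2 (ENSMUSG00000031700.5, chromosome 8, 85492576 to 85527560, + strand) is the mitochondrial alanine aminotransferase, which forms alanine and 2-oxoglutarate from pyruvate and glutamate. The control libraries had values of 11.14, 11.48 and 11.57, the MCTP libraries 9.95, 9.76 and 9.98, and the shNsd2 libraries 11.62, 11.57 and 11.69. Here too the MCTP libraries were the lowest, but the shNsd2 libraries were the highest, the lowest of them just above the highest control. Means were 11.39 ± 0.23, 9.90 ± 0.12 and 11.62 ± 0.060 (SD, n = 3 each). With MCTP the difference from control was -1.50 (standard error 0.115), a level of 35.4% of control and the largest fall of the 12216 genes. It was -1.63 without control replicate 1 and -1.43 without MCTP replicate 2.

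The aspartate aminotransferases Got1, in the cytosol, and Got2, in mitochondria, interconvert aspartate and glutamate with their keto acids, and together they form a part of the malate-aspartate shuttle. Got1 (ENSMUSG00000025190.7, chromosome 19, 43499752 to 43524605, - strand) was at 12.35, 12.60 and 12.61 in control, 12.16, 11.99 and 12.21 in MCTP and 12.41, 12.39 and 12.42 in shNsd2 libraries. The MCTP libraries were the lowest, and the shNsd2 libraries fell between control replicate 1 and the other controls. Got2 (ENSMUSG00000031672.7, chromosome 8, 95864134 to 95888547, - strand) was at 12.97, 13.10 and 13.05 in control, 13.18, 12.98 and 13.27 in MCTP and 13.22, 13.17 and 13.11 in shNsd2 libraries. MCTP and control overlapped for Got2 because MCTP replicate 2 lay among the controls, and the shNsd2 libraries lay above all controls. MCTP differed from control by -0.40 (standard error 0.0888) for Got1, which was -0.49 without control replicate 1 and -0.34 without MCTP replicate 2. For Got2 the difference was 0.10 (standard error 0.0806), and it was 0.19 without MCTP replicate 2, 0.042 without MCTP replicate 3, 0.069 without control replicate 1 and 0.019 with a correction for GC content. A gene named as a copy of Got2, Got2-ps1, has a row of its own in the table, and Gm45760 overlaps Got2 on the other strand, so reads of Got2 could be split with either.

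Proline synthesis from glutamate begins with Aldh18a1, the pyrroline-5-carboxylate synthase, and ends with Pycr1, a mitochondrial reductase that turns the intermediate into proline. Aldh18a1 (ENSMUSG00000025007.6, chromosome 19, 40550257 to 40588463, - strand) had values of 12.84, 13.13 and 13.20 in control, 12.26, 12.05 and 12.28 in MCTP and 13.25, 13.19 and 13.19 in shNsd2 libraries. Pycr1 (ENSMUSG00000025140.9, chromosome 11, 120635712 to 120643769, - strand) had values of 9.02, 9.28 and 9.28 in control, 8.59, 8.46 and 8.61 in MCTP and 9.30, 9.27 and 9.28 in shNsd2 libraries. In both genes the MCTP libraries were the lowest, control replicate 1 was the next lowest, and the shNsd2 libraries lay with control replicates 2 and 3. MCTP stood at -0.86 from control for Aldh18a1 (standard error 0.106), 55.0% of the control level, and at -0.64 for Pycr1 (standard error 0.0872), 64.2% of it. These were the falls of rank 39 and 129 among 12216 genes. Without control replicate 1 they were -0.97 and -0.73, and without MCTP replicate 2 they were -0.79 and -0.59. The annotated gene Gm15801 overlaps Aldh18a1 on the same strand.

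Oat, ornithine aminotransferase, links ornithine to the same intermediate. It (ENSMUSG00000030934.8, chromosome 7, 132557478 to 132576398, - strand) was at 12.37, 12.43 and 12.41 in control, 12.43, 12.26 and 12.36 in MCTP and 12.24, 12.25 and 12.23 in shNsd2 libraries. The shNsd2 libraries were below all others, with MCTP replicate 2 close to them, and MCTP replicate 1 lay just above the highest control while MCTP replicates 2 and 3 lay below the lowest. The MCTP difference was -0.053 (standard error 0.0576), and it was -0.0065 without MCTP replicate 2, -0.093 without MCTP replicate 1, -0.019 with median centring and -0.0021 with the GC correction. Fgfr2 overlaps Oat on the same strand in the annotation.

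Glud1, glutamate dehydrogenase, connects glutamate with 2-oxoglutarate and ammonia, and Glul, glutamine synthetase, adds ammonia to glutamate. Glud1 (ENSMUSG00000021794.9, chromosome 14, 34310727 to 34345265, + strand) was at 13.04, 13.11 and 13.06 in control, 13.14, 13.07 and 13.11 in MCTP and 13.01, 13.02 and 13.06 in shNsd2 libraries. These 9 values spanned a narrow range, and both treated groups overlapped with control. Glul (ENSMUSG00000026473.9, chromosome 1, 153899944 to 153909723, + strand) was at 8.55, 8.64 and 8.59 in control, 8.90, 8.72 and 8.84 in MCTP and 8.73, 8.71 and 8.68 in shNsd2 libraries. All libraries of both treated groups lay above all controls, and the treated groups overlapped each other. MCTP differed from control by 0.041 (standard error 0.048) for Glud1, between 0.026 (without MCTP replicate 1) and 0.075 (median centring) over the alternatives, and by 0.23 (standard error 0.0641) for Glul. Teddm2 on the other strand and Mir8114 overlap Glul, and the sources used here do not state whether reads were counted by strand.

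**Figure D1:**
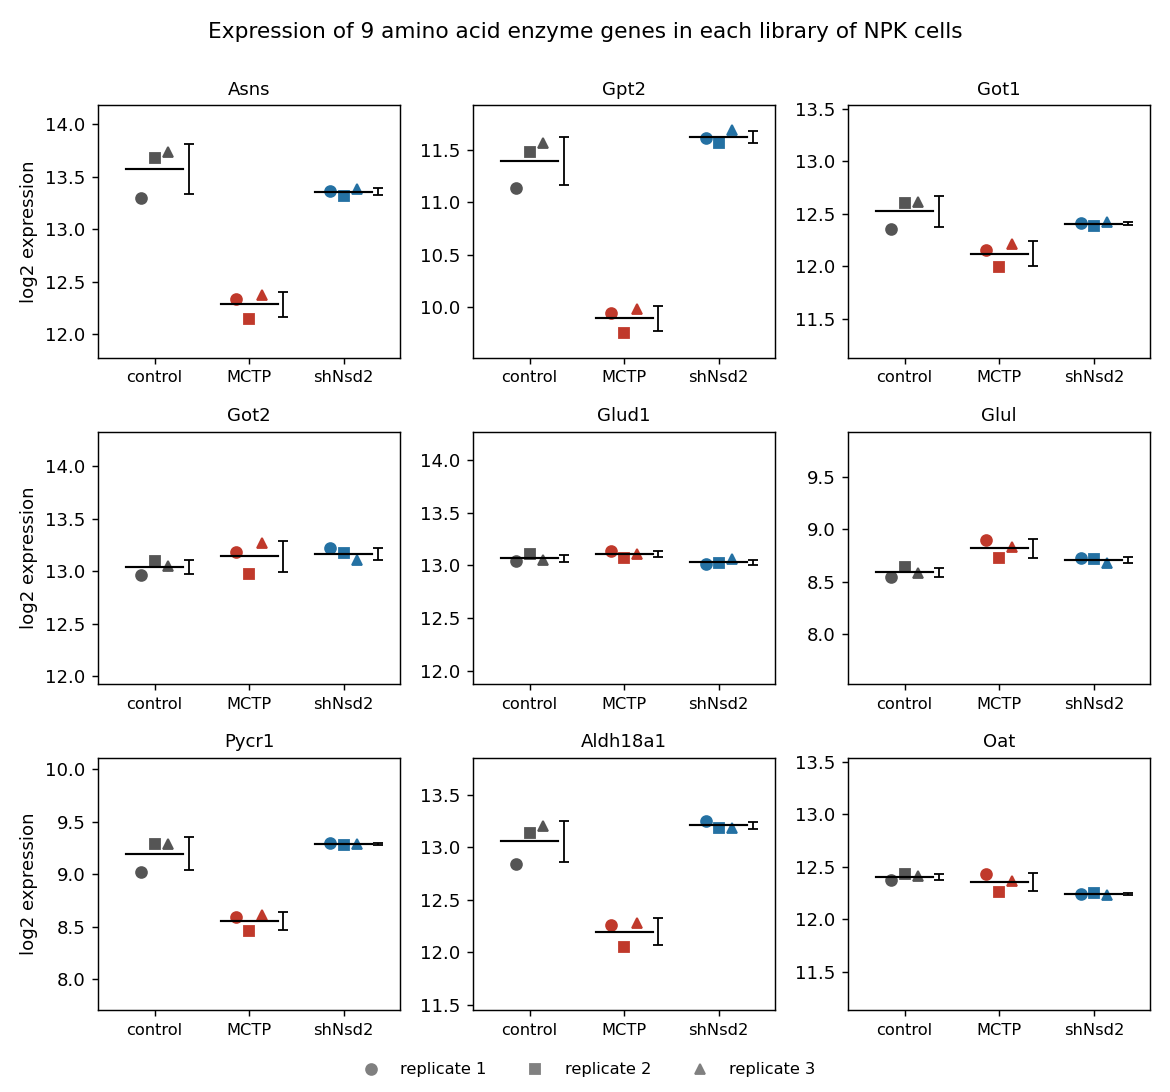
Log2 expression (y axis, the same span of 2.4 in every panel) of the 9 enzyme genes in each library of control, MCTP and shNsd2 cells (x axis). Points are libraries with a shape for each replicate number, horizontal lines are group means and bars are the SD (n = 3); the MCTP libraries of Asns, Gpt2, Got1, Pycr1 and Aldh18a1 are below all others, and control replicate 1 is the lowest control of each of them.

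Counted over the 9 enzymes, the MCTP libraries lay entirely below the control libraries for 5 genes (Asns, Gpt2, Got1, Pycr1 and Aldh18a1), entirely above for 1 (Glul) and overlapped for 3. Among all genes tested, 24.8% lay entirely below and 25.8% entirely above. The median difference of the 9 genes was -0.40, and that of all genes -0.0062. Because the genes were chosen on this contrast, nothing is read from these counts. All 9 genes passed the filter on low values in each comparison.

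The values of the shNsd2 libraries were not used to choose the enzymes, though earlier results of these data were known by then. Of the 12205 genes tested against control, 23.1% were called higher and 24.8% lower at an adjusted p under 0.05 in limma, and of the 9 enzymes 1 was called higher (Got2) and 1 lower (Oat). The number called was 1 instead of 2 without shNsd2 replicate 1 or 2 and was 3 without control replicate 1. With the GC correction it was 5, in a fit that called 6714 of all genes instead of 5836. The shNsd2 libraries lay entirely above control for 3 of the enzymes (Gpt2, Got2 and Glul), against 28.1% of all genes, and entirely below for 1 (Oat), against 29.1% of all genes. The median log2 fold change was 0.091 for the 9 genes and 0.0020 for all genes.

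Oat fell by 0.16 with shNsd2 (standard error 0.0323, adjusted p = 0.00314 from limma), to 89.2% of the control level, and all 3 shNsd2 libraries were below all controls. This call held in every alternative fit tried, with the log2 fold change between -0.18 and -0.13. Got2 rose by 0.13 (standard error 0.0452, adjusted p = 0.0412 from limma), with all 3 shNsd2 libraries above all controls, and by 0.086 with the GC correction. The Got2 call was lost without control replicate 1 (adjusted p = 0.0785 from limma), control replicate 3 (0.0789), shNsd2 replicate 1 (0.151) or shNsd2 replicate 2 (0.118), and with all 9 libraries fitted jointly (0.192). In all, 6 of the 13 alternatives lost the call, and over the 13 the adjusted p from limma ranged from 0.0175 to 0.192.

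Among the 9 enzymes, those with the largest falls under MCTP were not called with shNsd2 when all libraries were fitted without correction. Gpt2 stood at 0.23 above control (standard error 0.0957, adjusted p = 0.0773 from limma), and this difference was 0.10 without control replicate 1 (adjusted p = 0.0853) and 0.31 without control replicate 3 (adjusted p = 0.0237). Asns stood on the other side of control, at -0.22 (standard error 0.0972, adjusted p = 0.0965 from limma), with overlapping groups. Without control replicate 1 the log2 fold change of Asns was -0.35 (adjusted p = 4.58e-05 from limma), without control replicate 2 it was -0.16 (0.274) and without control replicate 3 it was -0.14 (0.282). Got1 was at -0.12 with all libraries (adjusted p = 0.172 from limma), -0.20 without control replicate 1 (0.000713), -0.076 without control replicate 2 (0.437) and -0.070 without control replicate 3 (0.435). With the GC correction Gpt2 was at 0.22 and past the threshold (adjusted p = 0.0469 from limma), as was Got1 at -0.14 (0.0427), and Asns was at -0.19 and not (0.105).

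For the proline enzymes the same library set the size of the difference. Aldh18a1 was 0.15 above control with all libraries (adjusted p = 0.161 from limma) and 0.040 above it without control replicate 1, while Pycr1 was 0.091 above control (adjusted p = 0.313) and 0.0020 above it without that library, and 0.052 above it with the GC correction. Glul was 0.11 above control, with all 3 shNsd2 libraries above all controls and an adjusted p of 0.0518 from limma. That value passed the threshold with quantile normalization (0.0287), median centring (0.0394), a fit without a variance trend (0.0326) and a GC correction (0.0163), and missed it in the other 9 of 13 alternatives, with 0.127 in the joint fit, 0.108 without control replicate 1 and 0.154 without shNsd2 replicate 1 among them. Glud1 was at -0.038 (adjusted p = 0.382 from limma), and at -0.020 without control replicate 2, -0.021 with median centring and -0.019 with the GC correction.

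**Figure D2:**
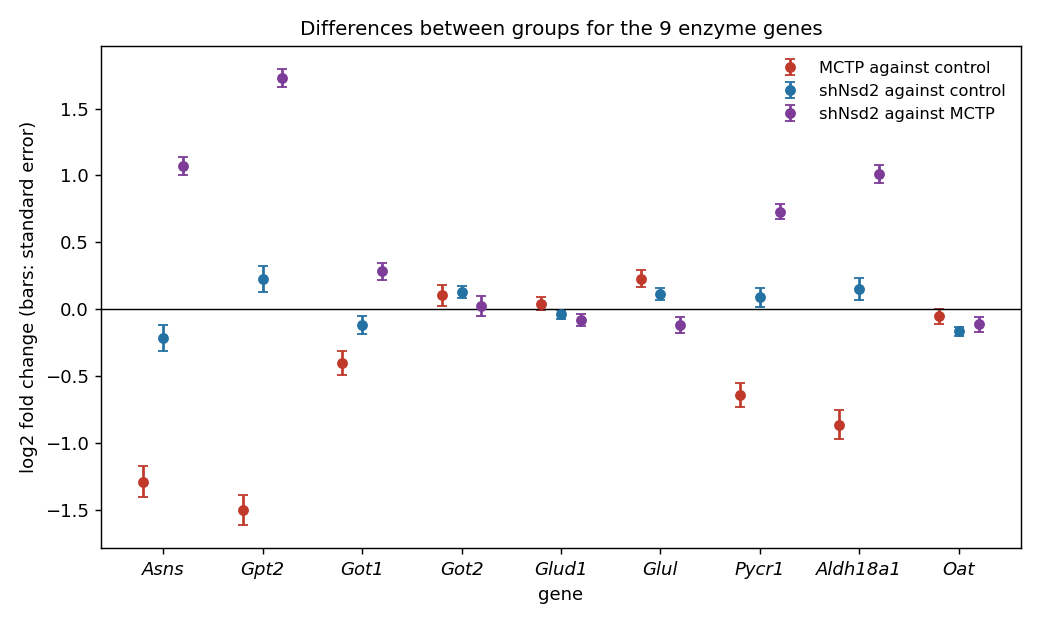
Log2 fold change (y axis) of each enzyme gene (x axis) in 3 comparisons, with MCTP against control in red, shNsd2 against control in blue and shNsd2 against MCTP in purple. Points are estimates from 3 libraries a group and bars are standard errors; Gpt2 lies at -1.50 with MCTP and 0.23 with shNsd2, Asns at -1.29 and -0.22, and both contrasts share the control libraries.

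The comparison of the treated groups with each other uses no control library. The shNsd2 libraries lay entirely above the MCTP libraries for 5 enzymes (Asns, Gpt2, Got1, Pycr1 and Aldh18a1), where 26.5% of all genes did, and entirely below for 2 (Glud1 and Oat), where 28.5% of all genes did. The MCTP libraries took part in the choice of genes, so these values are a description as well. Gpt2 was 1.73 higher with shNsd2 than with MCTP (standard error 0.0696), or 3.31 times the MCTP level, the 2nd largest rise among 12217 genes. For Asns the difference was 1.07 (standard error 0.0662) and for Aldh18a1 1.01 (standard error 0.069), each a little over 2 times the MCTP level. Pycr1 followed with 0.73 (standard error 0.0571) and Got1 with 0.29 (standard error 0.063). The smallest differences were those of Got2 (0.025, and -0.057 without MCTP replicate 2), Glud1 (-0.080), Glul (-0.11) and Oat (-0.11). With single libraries left out Got2 lay between -0.057 and 0.087, Glul between -0.16 (without MCTP replicate 2) and -0.073 (without MCTP replicate 1), and Oat between -0.16 and -0.071 for the same libraries. Without MCTP replicate 2 the differences were 1.66 for Gpt2 and 0.94 for Aldh18a1.

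Within groups, the enzymes varied together to a degree that rested on a few libraries. After the group means were subtracted, the Pearson correlation over the 9 libraries was 0.99 between Asns and Gpt2, 0.99 between Asns and Pycr1, 0.98 between Asns and Aldh18a1 and 0.98 between Pycr1 and Aldh18a1. For Asns with Got2, Glul, Oat and Glud1 it was 0.67, 0.60, 0.60 and 0.58, and without control replicate 1 and MCTP replicate 2 it was -0.13, -0.76, -0.73 and -0.27 over 7 libraries. Glul and Oat, which were not low with MCTP, had 0.96 over 9 libraries and 0.84 over those 7. The points share the 3 group means, which were taken again from the libraries kept, so fewer points are independent than the number of libraries. Once control replicate 1 is left out, the other controls deviate by equal and opposite amounts. The same holds for the other MCTP libraries once MCTP replicate 2 is left out. Without control replicate 1 the value for Asns and Gpt2 was 0.97 over 8 libraries, and without MCTP replicate 2 as well it was 0.93 over 7. Over the same 7 libraries it was 0.65 for Asns and Pycr1, 0.59 for Asns and Aldh18a1 and 0.67 for Pycr1 and Aldh18a1. For Gpt2 and Pycr1 it went from 0.96 over 9 libraries to 0.36 over 7, and for Gpt2 and Aldh18a1 from 0.95 to 0.35. For Asns and Got1 it went from 0.98 to 0.83, and for Got1 and Aldh18a1 from 0.97 to 0.30.

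Outside the list, the genes most like Asns over the 9 libraries were Slc7a5 (Pearson r = 0.999), a transporter of large neutral amino acids, and Nars (0.993), the asparaginyl-tRNA synthetase, followed by Eif4b, Pkp1 and Rcan3 (0.990, 0.989 and 0.989), among 12188 candidates. Slc7a5 stood at 13.90, 14.22 and 14.31 in control, 13.03, 12.89 and 13.09 in MCTP and 13.94, 13.93 and 13.90 in shNsd2 libraries. As with Asns, its shNsd2 libraries lay with control replicate 1 and its MCTP libraries below all others. Most like Gpt2 were Atf4 itself (0.998), the cysteinyl-tRNA synthetase gene Cars (0.997), the phosphoserine aminotransferase gene Psat1 (0.997), the glutathione-degrading enzyme gene Chac1 (0.997) and the cationic amino acid transporter gene Slc7a1 (0.996). Atf4 was at 13.99, 14.16 and 14.28 in control, 13.50, 13.40 and 13.50 in MCTP and 14.26, 14.25 and 14.28 in shNsd2 libraries. Like Gpt2, it was lowest with MCTP, and its shNsd2 libraries lay near control replicate 3. These correlations span 3 groups that differ in level, so a gene that differs between the groups in the same proportion reaches a high value.

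Regulators of the response to amino acid shortage were examined as a list of 18 genes, all of them tested. The list also holds the eIF2 kinase genes Eif2ak1, Eif2ak2 and Eif2ak3 and the enzyme gene Chac1, so it reaches beyond amino acid shortage. This list, like the 5 that follow it, was drawn up with results of these data known, so the MCTP counts are no support independent of the enzymes' falls. In MCTP against control, where 18.0% of all genes were called higher and 17.2% lower in limma, 3 of the 18 rose and 11 fell, with a median log2 fold change of -0.35 against -0.0062 for all genes. Trib3, a pseudokinase induced by Atf4, stood at 11.20, 11.71 and 11.94 in control and 10.19, 9.99 and 10.36 in MCTP libraries, a fall of -1.43 (standard error 0.181, adjusted p = 0.00132 from limma). Chac1 stood at 9.87, 10.05 and 10.30 in control and 8.79, 8.65 and 8.91 in MCTP libraries, a difference of -1.29 (standard error 0.115, adjusted p = 0.000291 from limma). Neither gene's MCTP libraries overlapped with control, and control replicate 1 was again the lowest control of both. Atf4 changed by -0.68 (standard error 0.0793, adjusted p = 0.000954 from limma) and Cebpg, a partner of Atf4 on DNA, by -0.56 (standard error 0.0665, adjusted p = 0.00101 from limma). The 3 genes that rose were Atf3 at 0.53 (adjusted p = 0.0128 from limma), Sesn2 at 0.26 (0.0429) and Eif2ak1 at 0.17 (0.0282), so the list did not fall as a whole. The number called, 14 of 18, was 9 without control replicate 2 and 8 without MCTP replicate 1, and the 4 named falls stayed past the threshold in all fits tried.

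With shNsd2 4 of the 18 genes of this list rose and 1 fell, where 23.1% of all genes were called higher and 24.8% lower in limma, with a median of 0.12 against 0.0020 for all genes. Atf5 stood at 11.63, 11.95 and 12.10 in control and 12.52, 12.50 and 12.52 in shNsd2 libraries, a rise of 0.62 (standard error 0.0984, adjusted p = 0.000988 from limma). Sesn2, which restrains mTORC1 when leucine is low, rose by 0.53 (standard error 0.0605, adjusted p = 0.000168 from limma), and Ppp1r15a, which directs dephosphorylation of eIF2, by 0.50 (standard error 0.119, adjusted p = 0.00758 from limma). For each of these 3 genes every shNsd2 library lay above every control, and Sesn2 was called higher with MCTP as well. Trib3 rose by 0.47 (adjusted p = 0.0303 from limma), by 0.26 without control replicate 1 and by 0.63 without control replicate 3. The call was lost without control replicate 2 (0.0524) and without shNsd2 replicate 1 (0.0776), 2 (0.0568) or 3 (0.0737). Atf4 was at 0.12 (adjusted p = 0.164 from limma), at 0.041 without control replicate 1 (0.429), 0.19 without control replicate 3 (0.0312) and 0.068 with the GC correction (0.287). Chac1 was at 0.15 (adjusted p = 0.187 from limma), at 0.052 without control replicate 1 (0.512), 0.27 without control replicate 3 (0.00803) and 0.093 with the GC correction (0.302). The count of 5 called was 10 without control replicate 3 and 3 without shNsd2 replicate 2. Between the treated groups, where 20.6% of all genes were called higher and 22.6% lower in limma, 13 of the 18 were higher with shNsd2 than with MCTP and 2 lower.

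**Figure D3:**
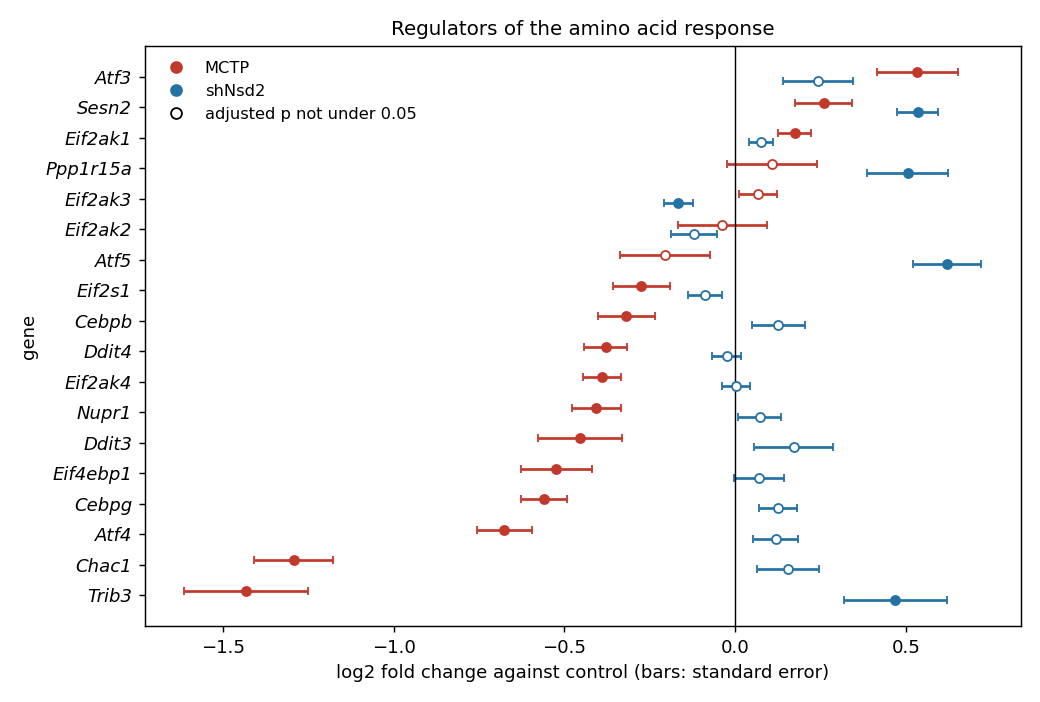
Log2 fold change against control (x axis) of the 18 genes listed for the amino acid response (y axis, ordered by the MCTP value), for MCTP in red and shNsd2 in blue. Points are estimates from 3 libraries a group, bars are standard errors and open points did not reach an adjusted p under 0.05 in limma; Trib3 lies at -1.43 with MCTP and 0.47 with shNsd2, and both contrasts share the control libraries.

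Neighbouring enzymes were examined in 5 further lists. Their counts stand beside the shares of all genes called in limma, which were 18.0% higher and 17.2% lower with MCTP and 23.1% higher and 24.8% lower with shNsd2. Of 6 asparagine and aspartate enzymes tested, 1 rose and 1 fell with MCTP and 1 rose with shNsd2. Ass1, argininosuccinate synthase, which consumes aspartate, stood at 10.10, 10.14 and 10.24 in control, 11.17, 10.97 and 11.44 in MCTP and 10.29, 10.25 and 10.25 in shNsd2 libraries. It was higher in all MCTP libraries than in any other, by 1.03 over control (standard error 0.113, adjusted p = 0.000708 from limma). Adss, the gene that fell with MCTP, was at -0.45 (adjusted p = 0.00342 from limma), and between -0.52 and -0.27 over the alternatives. Cad, which uses glutamine and aspartate for pyrimidine synthesis, rose by 0.37 with shNsd2 (standard error 0.0465, adjusted p = 0.000308 from limma). The number of this list called with MCTP was 2, and 6 without MCTP replicate 2. With shNsd2 it was 1, and 2 without control replicate 1, 3 without control replicate 3 and 2 without shNsd2 replicate 3, and 2 with median centring and 3 with the GC correction.

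Among 6 other aminotransferases, 1 rose and 3 fell with MCTP (18.0% and 17.2% of all genes), and 2 rose and 0 fell with shNsd2 (23.1% and 24.8% of all genes). Gpt was called higher in both, and with the GC correction both calls were lost (adjusted p = 0.502 with MCTP and 0.111 with shNsd2 from limma). The MCTP call of Gpt was also lost with quantile normalization (0.0619) and without control replicate 2 (0.0872), control replicate 3 (0.0697) or MCTP replicate 3 (0.062). Bcat1, which transfers amino groups from branched-chain amino acids, was at 10.24, 10.54 and 10.61 in control, 9.53, 9.42 and 9.62 in MCTP and 10.97, 10.94 and 10.96 in shNsd2 libraries. The 3 groups did not overlap, with MCTP lowest and shNsd2 highest: -0.94 with MCTP (standard error 0.104, adjusted p = 0.000722 from limma) and 0.49 with shNsd2 (standard error 0.0832, adjusted p = 0.00137 from limma). Psat1, which takes its amino group from glutamate to make phosphoserine, fell with MCTP (-0.79, standard error 0.0848, adjusted p = 0.000669 from limma) and was at 0.16 with shNsd2 (adjusted p = 0.0566). The latter was 0.084 without control replicate 1 (adjusted p = 0.0703 from limma), and it passed the threshold without control replicate 3 (0.0388) and with quantile normalization (0.013), median centring (0.0444) or the GC correction (0.02). Without control replicate 3 the count with MCTP was 2 instead of 4.

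Of 11 proline and ornithine enzymes, 5 rose and 4 fell with MCTP (18.0% and 17.2% of all genes), and 4 rose and 3 fell with shNsd2 (23.1% and 24.8% of all genes). Aldh4a1, which oxidises pyrroline-5-carboxylate to glutamate and so works against Aldh18a1, was at 9.22, 9.32 and 9.35 in control, 10.12, 9.97 and 10.27 in MCTP and 9.43, 9.38 and 9.30 in shNsd2 libraries. Its MCTP libraries were the highest, by 0.82 over control (standard error 0.0834, adjusted p = 0.000526 from limma), and its shNsd2 libraries overlapped with control. Prodh, the proline dehydrogenase gene, went the other way with MCTP, at -0.32 (adjusted p = 0.0291 from limma). With shNsd2 Prodh was at 0.24 (adjusted p = 0.00931 from limma). Whether proline synthesis or breakdown changed was not tested. The collagen prolyl hydroxylase genes P4ha1 and P4ha3 fell with shNsd2, by 0.41 each (adjusted p = 0.000123 and 9.49e-05 from limma), and P4ha2 by 0.23 (adjusted p = 0.00168 from limma). With MCTP P4ha1 fell by 0.30 (adjusted p = 0.00912 from limma), P4ha3 rose by 0.36 (adjusted p = 0.00232) and P4ha2 was at -0.042 (adjusted p = 0.662), with a log2 fold change of 0.025 without MCTP replicate 2. The count of 9 with MCTP was 5 without control replicate 1, 4 without control replicate 2, 5 without control replicate 3 and 4 without MCTP replicate 1.

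Glutamine and glutamate enzymes formed the largest of these lists, with 15 genes tested, of which 5 rose and 5 fell with MCTP (18.0% and 17.2% of all genes), and 8 rose and 3 fell with shNsd2 (23.1% and 24.8% of all genes). Gclc and Gss, which take glutamate towards glutathione, rose with MCTP by 0.54 and 0.69 (adjusted p = 0.000518 and 0.00193 from limma). The largest of the 5 falls with MCTP was that of Gmps, at -0.41 (adjusted p = 0.0109 from limma). It lay between -0.49 and -0.18 over the alternatives, and its call was lost without MCTP replicate 1 (0.0503). With shNsd2 the largest change was that of Nadsyn1, which uses glutamine to make NAD, at -0.58 (adjusted p = 2.97e-05 from limma), and Slc25a22, a mitochondrial glutamate carrier, rose by 0.28 (adjusted p = 0.00112 from limma). The MCTP count of 10 was 5 without control replicate 2, 6 without control replicate 3 and 4 without MCTP replicate 1. Of the 5 other components of the malate-aspartate shuttle, 1 rose and 1 fell with MCTP, and 1 rose and 2 fell with shNsd2. Slc25a13, an aspartate-glutamate carrier, fell by 0.33 with shNsd2 (adjusted p = 0.000147 from limma) and by 0.22 with MCTP (adjusted p = 0.0147 from limma), the latter call being lost without control replicate 1 (0.0589) or 2 (0.0777). The shuttle's MCTP count of 2 was 0 without control replicate 1 or 2, 1 without control replicate 3, MCTP replicate 1 or MCTP replicate 3, and 4 without MCTP replicate 2, with a joint fit, with quantile normalization or with the GC correction. Over all 6 lists 61 of 75 genes were tested, of which 16 rose and 25 fell with MCTP and 20 rose and 9 fell with shNsd2, beside the same shares of all genes. The MCTP total of 41 was 23 without control replicate 2, 26 without control replicate 3 and 22 without MCTP replicate 1.

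Promoter sequences were available for all 9 enzymes in RefSeq (GRCm38.p6), as 250 bases before to 50 bases after the start of the gene. They were searched for TGATGNAA, the core shared by the response elements that C/EBP-ATF dimers bind, on both strands (TTNCATCA on the other). It occurred in 3 of the 9, Asns (TGATGAAA, first base at -23), Pycr1 (TGATGCAA at -103) and Got1 (TTGCATCA at -102, on the other strand), and in 3.97% of all 32851 promoters of this length. No match was found in the windows of Gpt2, Aldh18a1, Got2, Glud1, Glul and Oat. Of the 10 genes most like Asns or Gpt2, 6 had promoters in the table, and the motif occurred in that of Chac1. A match describes the letters and shows no binding, and the absence of one says only that these letters are not in the window. The 130 bases before the start are shown for the 5 enzymes that were low with MCTP, from 5′ to 3′ on the strand of the gene, with the motif in capitals. They lie at chr6:7693210-7693339 (- strand) for Asns, chr11:120643749-120643878 (- strand) for Pycr1, chr19:43524606-43524735 (- strand) for Got1, chr8:85492446-85492575 (+ strand) for Gpt2 and chr19:40588464-40588593 (- strand) for Aldh18a1. RefSeq and GENCODE place the starts of Asns and Pycr1 at different bases, so the part of these 2 windows nearest the RefSeq start, with the Asns motif, falls inside the gene as given by GENCODE.
Asns: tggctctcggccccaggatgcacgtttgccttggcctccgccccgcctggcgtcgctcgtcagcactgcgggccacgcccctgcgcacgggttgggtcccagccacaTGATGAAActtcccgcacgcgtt
Pycr1: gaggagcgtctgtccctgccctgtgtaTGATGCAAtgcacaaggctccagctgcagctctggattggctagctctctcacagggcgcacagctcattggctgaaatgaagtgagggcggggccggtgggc
Got1: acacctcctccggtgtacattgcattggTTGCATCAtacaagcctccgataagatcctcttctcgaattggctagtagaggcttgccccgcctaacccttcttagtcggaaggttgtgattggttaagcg
Gpt2: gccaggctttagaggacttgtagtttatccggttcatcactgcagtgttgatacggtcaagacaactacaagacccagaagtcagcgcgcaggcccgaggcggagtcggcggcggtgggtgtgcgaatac
Aldh18a1: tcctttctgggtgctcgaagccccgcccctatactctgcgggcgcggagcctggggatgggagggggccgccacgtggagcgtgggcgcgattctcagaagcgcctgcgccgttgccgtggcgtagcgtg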

How the data were processed

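Groups and replicate numbers of the 9 libraries were taken from the sample titles. The authors deposited a table of log2 values for 12842 genes. The study's methods describe stabilisation of the variance with DESeq2 for RNA sequencing of another set of samples, and whether it was applied to these libraries is not stated. The use of strand in counting is not given in the sources used here. The submitters' processing notes name bcl2fastq 1.8.4, TopHat, Cufflinks, DESeq, DESeq2 and the build mm9, without role or order. Of 12 value columns, 3 match no sample and were not used.

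Each pair of groups was fitted by itself in R 4.3.3, using limma 3.58.1. Moderation by eBayes included a trend of the variance with the mean, p-values were adjusted over all genes tested by the method of Benjamini and Hochberg, and the threshold was 0.05. Genes were tested if at least 3 of the 6 libraries lay above 3.78, the median of the lowest 10% of values (the floor). The fit was tested on simulated data with known answers. Replicates had Pearson correlations of 0.996 to 0.9998. The alternatives tried left out the filter, put all 9 libraries into a joint fit, blocked on replicate number, or left out each library in turn. Others used quantile normalization, median centring, eBayes without a trend and a correction for transcript GC content (lowess, span 0.3), for which 97.4% of genes had a reference transcript.

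The genes named were all 9 enzymes, Nsd2, at most 4 called genes with the largest absolute change per list and comparison, and the 5 genes outside the enzymes most correlated with Asns and with Gpt2. Atf4, Chac1 and Psat1 with shNsd2, P4ha2, P4ha1 with MCTP, and other values outside this rule were added for comparison after their values were seen. Enzymes and lists were chosen with earlier results of these data known. Coordinates are those of GENCODE M21 (GRCm38), not of mm9. Python 3.11.15 prepared the tables, and matplotlib 3.10.9 drew the figures. The alleles of the cell line and some marker genes are not reported here.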

Additional observations from a re-analysis of the deposited data

How the results depend on the processing

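The number of enzymes called with shNsd2 against control, 2 with limma, was 1 with all 9 libraries fitted jointly, 1 with a block for replicate number and 5 with the GC correction, which added Gpt2, Got1 and Glul, and 1 to 3 with single libraries left out (1 without shNsd2 replicate 1 or 2). Glul was called besides Got2 and Oat with quantile normalization (adjusted p = 0.0287 from limma), median centring (0.0394) and eBayes without a trend (0.0326). For libraries of the same number, deviations correlated with a mean of -0.25 (shNsd2 with control), -0.19 (MCTP with control) and -0.36 (shNsd2 with MCTP). Single pairs went both ways, from -0.81 for number 3 of shNsd2 with MCTP to 0.61 for number 3 of MCTP with control. The numbers were therefore not treated as pairs. With the block the adjusted p of Got2 was 0.0982 and the count over all genes with shNsd2 4515 instead of 5836.

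Other counts also rested on single libraries. With MCTP against control 4305 genes were called, and 2046 to 7384 with a library left out: 2366, 2162 and 2456 without control replicate 1, 2 and 3, and 2046, 7384 and 2842 without MCTP replicate 1, 2 and 3. Pathway list genes called with MCTP numbered 41, and 22 to 48 with a library left out (23 without control replicate 2, 26 without control replicate 3, 22 without MCTP replicate 1). Between shNsd2 and MCTP 5276 genes were called, and 3391 to 7781 with a library left out (3391 without MCTP replicate 1, 3429 and 3420 without shNsd2 replicate 2 and 3). No enzyme's log2 fold change against control changed sign with shNsd2 in any alternative. The cause of these changes was not tested.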
